A study of Mus musculus with 6 samples.

Results

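Parietal cells of the gastric gland secrete acid across their apical membrane, and each proton secreted leaves a bicarbonate ion behind in the cytosol. Carbonic anhydrase makes the proton and the bicarbonate from water and CO2. Exchangers and cotransporters of the basolateral membrane export the bicarbonate, bring in chloride and correct pH and volume, and a water channel lets water follow. The genes described here encode that basolateral side of acid secretion. They are Slc4a2, an anion exchanger, Slc9a4 and Slc9a2, sodium-proton exchangers, Slc12a2, the sodium-potassium-chloride cotransporter, Aqp4, a water channel, and Car2, the cytosolic carbonic anhydrase. They were chosen by name, as all probes annotated with 1 of these 6 symbols, and they account for 15 of the 45281 probes on the array.

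The study asked how loss of Lasp1 alters gene expression in the gastric mucosa. Total RNA came from the fundic gastric mucosa of C57Bl/6Ncr mice aged 3 months. There were 3 samples labelled Lasp1 knockout and 3 labelled wild type, each measured on 1 Illumina bead array. Lasp1 encodes an actin-binding protein that is abundant in parietal cells. The labels do not say how the knockout allele was made or whether each sample held 1 mouse. All p-values therefore reflect only how much these samples differ from each other, which may be technical.

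The values are the authors' linear probe intensities, which have a median of 1000 on every array and still contain background. Background was read from 14 probes of Y-linked genes, whose brightest lay between 1020 and 1212 on the 6 arrays. This takes those genes to be silent in the samples, whose sex is not given here. Probes with a mean log2 value above the median probe were tested, 22640 in all, with limma, and all differences are knockout minus wild type on the log2 scale. Parietal identity was checked with 9 marker genes, all of them tested. Atp4a, the catalytic subunit of the proton pump, read 443047, 537817 and 539091 on the knockout arrays, against 505989, 513259 and 438485 on the wild type arrays. Atp4b, its other subunit, read 464845 to 530793 in knockout and 454536 to 532362 in wild type mucosa, and Clic6, a chloride channel-like protein, 279677 to 319738 and 269677 to 301838. Of these 9 markers, Kcnq1 alone read below 1212 on every array. No parietal marker passed the test, and 8 of 9 differences lay above 0, with a median of 0.07, beside a median of 0.10 over all tested probes.

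Lasp1 itself read 88521, 111002 and 89823 on the knockout arrays, against 270957, 275068 and 177315 on the wild type arrays, for its brightest probe, ILMN_2879746. Every knockout array lay below every wild type array, at a log2 difference of -1.30 (SE 0.21; exact two-sided permutation p = 0.1, the smallest that 3 against 3 arrays can give). Over all tested probes this did not pass (limma adjusted p = 0.994). Another probe, ILMN_2879745, read 6674, 8652 and 7881 in knockout, against 31441, 30113 and 13074 in wild type mucosa. Its log2 difference was -1.59 (limma adjusted p = 0.994). Without wild type replicate 3, described below, it was -2 and passed (limma adjusted p = 0.0318). ILMN_2596851 was near background, at 877 to 1156 in knockout and 970 to 1483 in wild type mucosa, and its groups overlapped (log2 -0.21). Whether the Lasp1 probes lie inside the deleted part is not stated in the labels.

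The arrays differed in level and in the transcripts of other tissues that they carried. Wild type replicate 3 was the lowest of the 6 arrays for 64.9% of all tested probes, and it carried transcripts of the exocrine pancreas. The 7 tested pancreatic acinar markers summed to 46167 to 127550 on the knockout arrays, to 150620 and 163350 on wild type replicates 1 and 2, and to 3883000 on wild type replicate 3. On the arrays other than replicate 3 of each genotype most of that sum came from Zg16 and Cela1. Knockout replicate 3 also carried acinar transcripts that the sum does not show: Cela2a, an acinar elastase, read 2400, 1368 and 58913 on the knockout arrays, against 1288, 1311 and 647587 on the wild type arrays. The list's mean log2 value was 11.7, 11.2 and 13.5 on the knockout arrays, against 11.7, 11.6 and 19.1 on the wild type arrays. Knockout replicate 1 and wild type replicate 2 carried transcripts of squamous epithelium, with summed levels of 9 markers of 1029400 and 601220, and 14573 to 31187 on the other arrays. Krt10, a suprabasal keratin, led that list with 439721 and 241643 on those arrays. The differences of the 6 genes are therefore also given without wild type replicate 3. Titles carry a further number, 1 to 6, whose meaning the labels do not state. Differences are also given for the low-numbered arrays (1 to 3: knockout replicate 1 against wild type replicates 1 and 2) and the high-numbered arrays (4 to 6: knockout replicates 2 and 3 against wild type replicate 3). In each of these sets 1 genotype has a single array.

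None of the 6 genes passed the test between knockout and wild type mucosa. All 6 were expressed, with at least 1 probe each above the brightest Y-linked probe on every array. Of the 15 probes, 11 lay above that background on all 6 arrays and 4 on at most 1 array, where they read 800 to 1138. The filter kept 12 probes, of which 0 were called at a limma adjusted p under 0.05, where 0.00883% of all tested probes were called. Unadjusted p-values of the 12 ran from 0.141 to 0.882, so none lay under 0.05 either. Knockout and wild type arrays overlapped for all 12, where 7.19% of all tested probes had groups that did not overlap (6.17% higher and 1.02% lower in knockout mucosa). Exact permutation p-values of the brightest probes ran from 0.2 for Slc4a2 to 0.9 for Aqp4 and Car2. In bulk mucosa fewer parietal cells and less RNA per cell cannot be told apart.

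**Figure D1:**
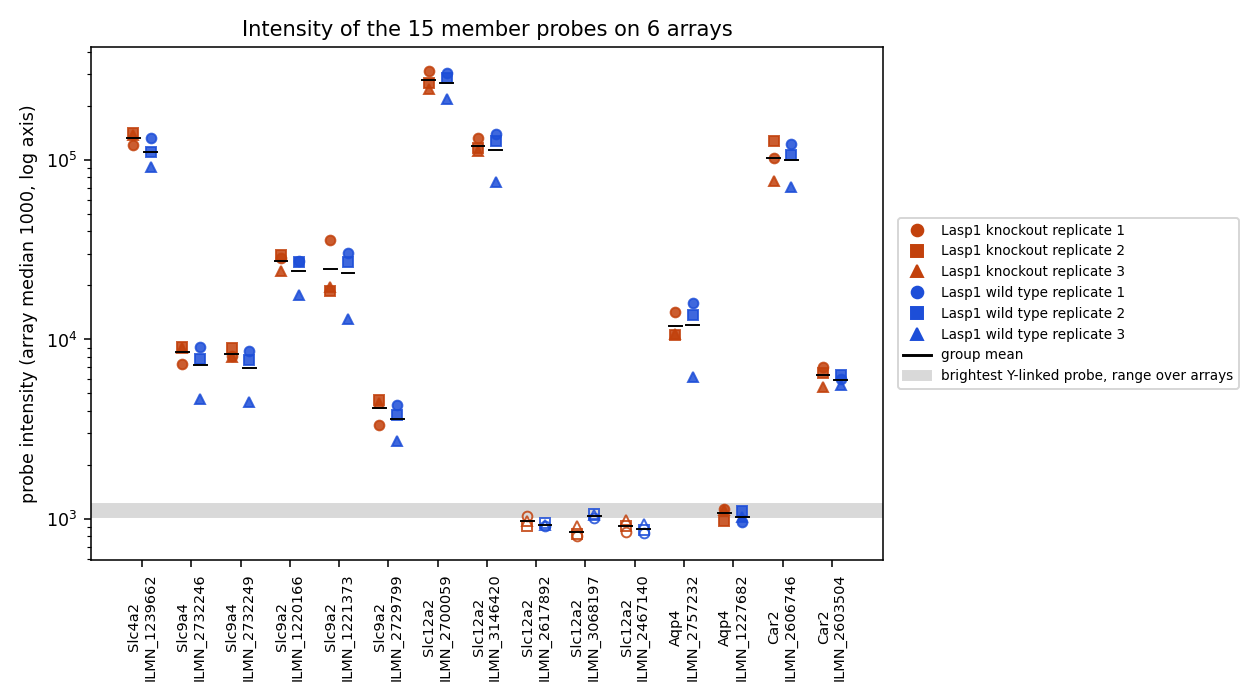
Probe intensity on a log axis for the 15 probes, with knockout arrays in orange to the left of wild type arrays in blue, a marker shape for each replicate number, black lines for group means, and open symbols for the 3 probes below the filter. The 4 probes in or below the grey band, the range of the brightest Y-linked probe over the arrays, are 3 of the 5 for Slc12a2 and 1 of the 2 for Aqp4, and the wild type triangle is the lowest point for 10 of the 12 tested probes.

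Slc4a2 encodes the anion exchanger AE2, which moves bicarbonate out of the parietal cell across the basolateral membrane in exchange for chloride. Its single probe, ILMN_1239662, read 121373, 141904 and 137571 on the knockout arrays, against 132330, 110806 and 91162 on the wild type arrays. Knockout replicates 2 and 3 were the highest of all, knockout replicate 1 lay below wild type replicate 1, and wild type replicate 3 was lowest. Means were 133616 ± 10822 in knockout and 111433 ± 20592 in wild type mucosa (SD, n = 3 each). On the log2 scale the difference was 0.28 (SE 0.17, 95% interval -0.12 to 0.67; limma adjusted p = 0.994; exact permutation p = 0.2). The difference was 0.14 without wild type replicate 3, 0.0034 on the low-numbered and 0.62 on the high-numbered arrays.

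On a scale relative to the parietal cell markers, Slc4a2 was the single gene of the 6 whose groups did not overlap. Subtracting each array's mean log2 value of the 9 markers left 1.57, 1.79 and 1.77 on the knockout arrays and 1.49, 1.53 and 1.51 on the wild type arrays. On this scale the wild type arrays were close together and knockout replicate 1 was nearest to them. The difference was 0.20 (exact permutation p = 0.1; limma adjusted p = 1), and 5.98% of all tested probes had groups that did not overlap on the same scale (4.7% higher in knockout mucosa). The 9 markers include Kcnq1, which lay at background and read 920 on knockout replicate 1 and 1117 on wild type replicate 3. Whether the Slc4a2 groups stay apart on a scale without Kcnq1 was not tested. Slc4a2 passed in 1 alternative alone, with limma's array weights (log2 0.31, adjusted p = 0.0431), under which 1816 probes passed in all. Those weights gave wild type replicate 2 a value of 38.8, while the next largest was 1.6. Over all alternatives its adjusted p ranged from 0.0431 to 1.

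Promoter sequence was at hand for Slc4a2 alone among the 6 genes, from RefSeq (GRCm38.p6), with 2 transcription start sites on chromosome 5. The 250 bases before the upstream start and the last 30 bases before the downstream start are shown, because AE2 is made from alternative promoters, while the array has a single probe for it, annotated with 1 transcript accession. Capitals mark AGGTCA, the half-site letters recognised by nuclear receptors such as the estrogen-related receptors. One of these, Esrrg, is a parietal cell marker.
Slc4a2 upstream start, chr5:24424982-24425231, + strand: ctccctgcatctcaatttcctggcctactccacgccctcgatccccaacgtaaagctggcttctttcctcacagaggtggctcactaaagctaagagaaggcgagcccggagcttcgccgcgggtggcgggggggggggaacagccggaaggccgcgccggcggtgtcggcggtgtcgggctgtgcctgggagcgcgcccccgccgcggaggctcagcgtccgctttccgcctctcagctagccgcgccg
Slc4a2 downstream start, chr5:24425814-24425843, + strand: gccatgaaaagggttggcgggtcAGGTCAg
Of the 250 bases before each start, the upstream window is 69.2% G or C and holds no AGGTCA on either strand. The downstream window is 61.2% G or C and holds 1, starting at -7 on the gene's strand. The median over 32851 windows of the same length was 52.4% G or C, and 14% of them held AGGTCA on either strand. The longer letters TNAAGGTCA, which contain AGGTCA and were searched on both strands, were in neither window and in 1.14% of all windows. Esrrg read 65997, 56845 and 52061 on the knockout arrays, against 77475, 55695 and 44242 on the wild type arrays, a log2 difference of 0.011.

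Slc9a4 encodes NHE4, a sodium-proton exchanger of the parietal basolateral membrane. Its brighter probe, ILMN_2732246, read 7345, 9098 and 8965 on the knockout arrays, against 9084, 7816 and 4646 on the wild type arrays. The other, ILMN_2732249, read 8057, 8976 and 8009 in knockout, against 8592, 7674 and 4502 in wild type mucosa. Both probes placed wild type replicate 3 far below the rest, and the other 5 arrays were interleaved. The log2 differences were 0.29 (SE 0.26, 95% interval -0.32 to 0.90) and 0.32 (SE 0.25, -0.26 to 0.90), each at a limma adjusted p of 0.994. Leaving out wild type replicate 3 brought them to 0.00061 and 0.038. For the brighter probe the low-numbered arrays gave -0.20 and the high-numbered arrays 0.96.

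Slc9a2 encodes NHE2, a sodium-proton exchanger needed in mice for the survival of parietal cells. It lies next to Slc9a4 on chromosome 1 in GRCm38.p6, with no protein-coding gene between them. ILMN_1220166, its brightest probe, read 28287, 29680 and 24122 on the knockout arrays, against 27432, 27013 and 17763 on the wild type arrays. ILMN_2729799 read 3341, 4616 and 4433 in knockout, against 4319, 3815 and 2711 in wild type mucosa. A further probe, ILMN_1221373, read 36044, 18687 and 19602 in knockout, against 30340, 26897 and 13055 in wild type mucosa, so it put knockout replicate 1 highest where ILMN_2729799 put it second lowest. The 3 probes differed by 0.21, 0.20 and 0.10, with limma adjusted p = 0.994 for each, and ILMN_1221373 had the widest 95% interval of the 12 tested probes (-0.81 to 1.02). Without wild type replicate 3 they differed by 0.0019, 0.011 and -0.27. In the same order the low-numbered arrays gave 0.055, -0.28 and 0.34, and the high-numbered arrays 0.59, 0.74 and 0.55.

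Slc12a2 encodes NKCC1, which loads cells with chloride across the basolateral membrane. Its 5 probes fell into a bright pair and 3 at background. The brightest, ILMN_2700059, read 315182, 270182 and 250273 on the knockout arrays, against 304229, 286147 and 218872 on the wild type arrays, a log2 difference of 0.054 (SE 0.17, 95% interval -0.35 to 0.45; limma adjusted p = 0.994). ILMN_3146420 read 132369, 116520 and 111957 in knockout, against 139241, 126990 and 75725 in wild type mucosa, a log2 difference of 0.12 (95% interval -0.44 to 0.69). Both put wild type replicate 3 lowest and replicate 1 of either genotype highest. Without wild type replicate 3 the bright pair differed by -0.090 and -0.15. The low-numbered arrays gave 0.095 and -0.0066 for this pair, and the high-numbered arrays 0.25 and 0.59. Of the background probes, ILMN_3068197 read 800, 828 and 916 in knockout, against 1013, 1059 and 1045 in wild type mucosa. Its groups did not overlap, but all values lay below the Y-linked background of their own array, so it gives no level.

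Aqp4 encodes aquaporin 4, the water channel of the parietal basolateral membrane. Among the brightest probes of the 6 genes, its probe varied most between arrays. ILMN_1221373, not the brightest probe of Slc9a2, varied more, with 13055 on wild type replicate 3 and 36044 on knockout replicate 1. ILMN_2757232 read 14216, 10572 and 10725 on the knockout arrays, against 16049, 13768 and 6212 on the wild type arrays, so the highest array was 2.58 times the lowest and both were wild type. The 3 knockout values lay between them. Means were 11838 ± 2061 in knockout and 12010 ± 5149 in wild type mucosa (SD, n = 3 each), while the log2 difference was 0.077 (SE 0.36, 95% interval -0.77 to 0.92; limma adjusted p = 0.994). The mean intensity was thus lower and the mean log2 value higher in knockout mucosa. Without wild type replicate 3 the difference was -0.34 (95% interval -0.75 to 0.068; limma adjusted p = 1). The low-numbered arrays gave -0.064 and the high-numbered arrays 0.78. The second Aqp4 probe, ILMN_1227682, annotated with a different transcript accession, stayed at background with 969 to 1138 in knockout and 961 to 1099 in wild type mucosa.

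Car2 encodes carbonic anhydrase II, the cytosolic enzyme that supplies protons to the pump and bicarbonate to AE2. Its brighter probe, ILMN_2606746, read 102558, 127737 and 76938 on the knockout arrays, against 122641, 107004 and 70580 on the wild type arrays. Replicate 3 of either genotype was low, the knockout one included, and the difference was 0.041 (SE 0.26, 95% interval -0.59 to 0.67; limma adjusted p = 0.995). ILMN_2603504 read 7015, 6520 and 5464 in knockout, against 5988, 6327 and 5542 in wild type mucosa, a difference of 0.084 (95% interval -0.24 to 0.41). Without wild type replicate 3 the differences were -0.19 and 0.033. They were -0.16 and 0.19 on the low-numbered arrays, and 0.49 and 0.11 on the high-numbered arrays. Red blood cells also contain carbonic anhydrase II. Of their markers, Hbb-bs, a beta globin, read 3129, 2342 and 4415 on the knockout arrays and 4694, 6384 and 1511 on the wild type arrays. The globins Hbb-bt and Hba-a1 read 1348 to 5547 and 1204 to 4847 over the arrays, each lowest on wild type replicate 3. Slc4a1, Car1 and Alas2, of the same list, were below 1212 on all arrays. The part of red blood cells in the Car2 values was not tested.

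The direction of the 6 genes as a set depended on single arrays. With all arrays, 12 of 12 tested probes had a difference above 0, at a median of 0.11, where 76.9% of all tested probes lay above 0 at a median of 0.10. Without wild type replicate 3 there were 7 above and 5 below 0 at a median of 0.0013, and 48.9% of all tested probes lay above 0. After quantile normalization 6 lay above and 6 below. With the low-numbered and high-numbered sets as a block all 12 lay above 0 at a median of 0.30, where 83.7% of all tested probes lay above 0. Among the brightest probes, Slc12a2 and Aqp4 also turned below 0 without knockout replicate 1 (-0.039 and -0.062), and Car2 without knockout replicate 2 (-0.13). On the low-numbered arrays the split was again 6 and 6, while all 12 lay above 0 on the high-numbered arrays, where wild type replicate 3 is the only wild type array. That array was the lowest of the 6 for 10 of the 12 probes (83.3%, beside 64.9% of all tested probes). These 12 probes come from 6 genes, and 11 of them lay above background on all arrays. The filter for all tested probes did not require that, so the shares are not like for like. The pancreatic sum given above moved with wild type replicate 3, and its part in these values was not tested.

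**Figure D2:**
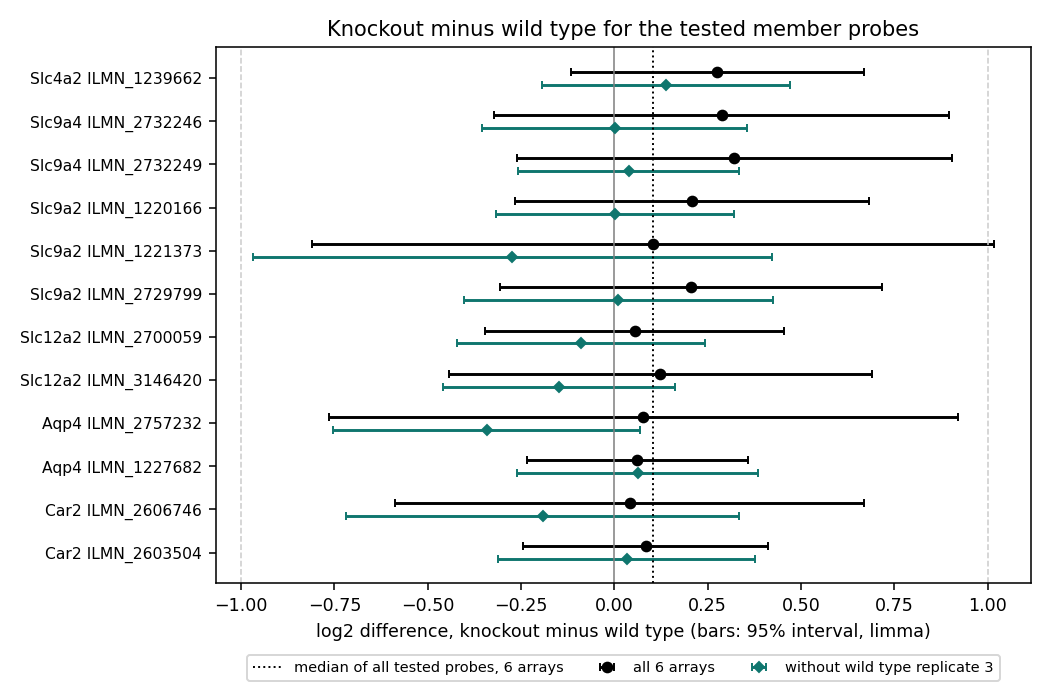
Log2 difference, knockout minus wild type, with 95% intervals for the 12 tested probes, from all 6 arrays (black circles) and without wild type replicate 3 (green diamonds). With all arrays every interval includes 0, the points run from 0.041 to 0.32, and the diamonds run from -0.34 to 0.14 on both sides of the line at 0, with dashed lines at a doubling and a halving and a dotted line at the median of all tested probes.

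The intervals set how large a change these arrays leave room for. Over the 11 tested probes above background on all arrays, a halving in the knockout lay outside the 95% interval of 11. A doubling lay outside it for 10, with ILMN_1221373 of Slc9a2 as the exception, and for all 11 without wild type replicate 3. Without that array the lower bound of ILMN_1221373 was 0.511 times wild type, close to a halving. On the linear scale the brightest probes allowed knockout levels of 0.922 to 1.59 times wild type for Slc4a2, 0.80 to 1.86 for Slc9a4, 0.83 to 1.60 for Slc9a2, 0.79 to 1.37 for Slc12a2, 0.59 to 1.89 for Aqp4 and 0.67 to 1.59 for Car2. For Aqp4 the interval was 0.59 to 1.05 without wild type replicate 3. These intervals are not adjusted for the number of probes, and background that was not subtracted makes changes of dimmer probes read smaller.

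Among themselves the 6 genes did not share 1 pattern beyond the low values on wild type replicate 3. Centred on their own means, all 6 lay at -0.88 to -0.31 on that array, where the 9 parietal markers averaged -0.31 and the median tested probe lay at -0.27. Aqp4 was lowest there (-0.88), followed by Slc9a4 (-0.72). The knockout arrays separated them: on knockout replicates 2 and 3 Slc4a2 stood at 0.23 and 0.18 and Slc9a4 at 0.25 and 0.23, while Aqp4 stood at -0.11 and -0.09. Car2 differed between these same arrays, with 0.37 on knockout replicate 2 and -0.36 on knockout replicate 3.

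**Figure D3:**
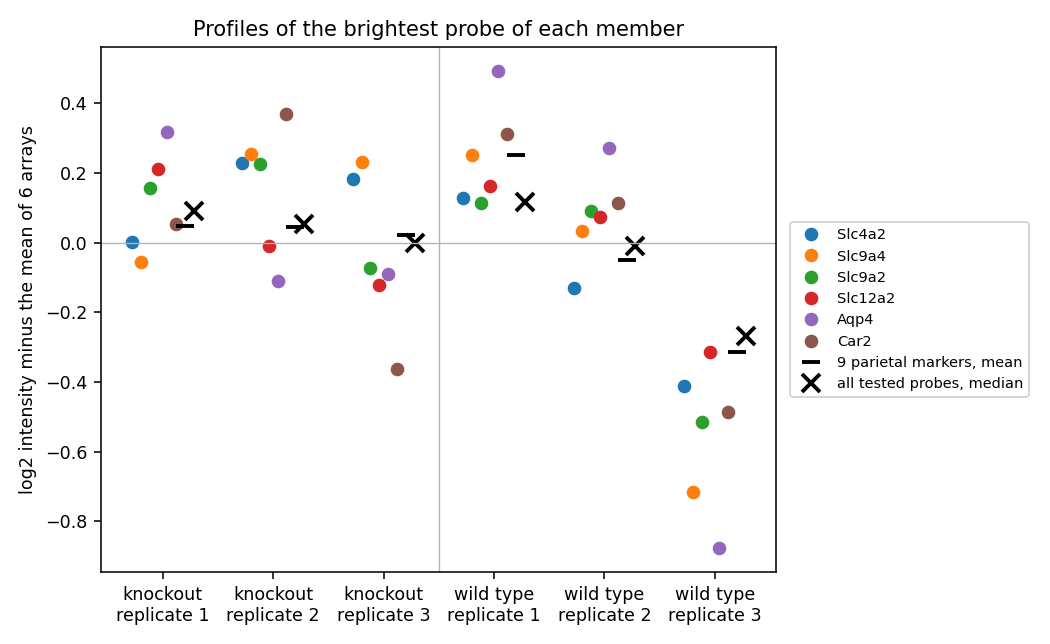
Log2 intensity of each gene's brightest probe minus its mean over the 6 arrays, by array, with knockout arrays on the left, wild type arrays on the right, bars for the mean of 9 parietal markers and crosses for the median of all tested probes. On wild type replicate 3 all 6 genes lie between -0.88 and -0.31, and on the knockout arrays they lie on both sides of 0.

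Likeness between genes was measured as the root mean square difference of centred log2 profiles over the 6 arrays, against 11862 other named genes with a tested probe. Slc9a2 and Slc12a2 were the closest pair of the 6 (0.13), followed by Slc4a2 with Slc9a4 (0.15) and with Slc9a2 (0.16). Slc4a2 and Aqp4 were the farthest apart (0.37). Many other genes lay nearer: 22.7% of all genes were closer to Slc12a2 than Slc9a2 was, and 23.7% closer to Slc4a2 than Slc9a4 was. For Slc9a4, 5.67% of genes were closer than Slc4a2, and for Car2, 2.8% were closer than Slc9a2. The chromosomal neighbours Slc9a2 and Slc9a4 lay 0.18 apart, with 11.6% of genes nearer to Slc9a4 and 39.5% nearer to Slc9a2.

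The nearest named genes outside the 6 matched each profile to within 0.017 to 0.082 log2 units. The median distance over all 11862 genes ran from 0.184 for Slc12a2 to 0.361 for Aqp4. Because these are the nearest of so many genes over 6 arrays, a close match alone does not mark a partner. Slc4a2 was most like Bcap31, a chaperone of the endoplasmic reticulum (0.026), the glucose transporter Slc2a1 (0.027) and the mitochondrial carrier Slc25a11 (0.027). Slc9a4 was most like St14, the membrane protease matriptase (0.028), the GTPase Cdc42 (0.040) and Wwc1 (0.043). Slc9a2 came nearest to the acetyl-CoA synthetase Acss2 (0.027), the G protein subunit Gna13 (0.030) and Cnep1r1 (0.032), and Slc12a2 to the chromatin factors Bptf (0.017) and Tada1 (0.025) and to Nfs1, a cysteine desulfurase (0.027). Aqp4 had Wdr46 (0.043), the peroxisomal and mitochondrial enzyme Ech1 (0.060) and Gpatch1 (0.061). The nearest to Car2 were Rab11fip4, a Rab11 effector (0.066), Tob2 (0.071) and Mcf2l (0.082). None of these genes passed the test.

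Other transporters and receptors of the parietal basolateral side showed no called change. Of 11 listed partners, 9 were tested, 0 were called in either direction (0.00883% of all tested probes) and 6 lay above 0 (76.9% of all tested probes), with a median of 0.096, beside 0.10 for all tested probes. Kcnk5, a pH-sensitive potassium channel, had the smallest p, with 15330, 21798 and 13656 on the knockout arrays, against 13566, 15833 and 7387 on the wild type arrays (log2 0.51, SE 0.32; 0.18 without wild type replicate 3). Cckbr, the gastrin receptor, differed by 0.26 (0.12 without that array), the potassium channel Kcnj16 by 0.25 and Atp1b3, a beta subunit of the sodium pump, by 0.096. Kcnj16 read 8435 on knockout replicate 1 and 16225 and 15770 on the other knockout arrays, beside 10241 to 11785 in wild type mucosa. Without wild type replicate 3 the median of these partners was -0.19.

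Regulators of the exchangers and of NKCC1 were likewise not called. Of 12 listed, 10 were tested, 0 passed (0.00883% of all tested probes) and 8 lay above 0 (76.9% of all tested probes), with a median of 0.17 (-0.066 without wild type replicate 3). Chp2, a calcineurin-like cofactor of sodium-proton exchangers, read 2046, 2161 and 1622 in knockout, against 1662, 1431 and 1361 in wild type mucosa. Its log2 difference of 0.38 (SE 0.16) had an unadjusted p of 0.0444 in limma and an adjusted p of 0.994, and the groups overlapped by 1 array. Cab39l, a partner of the SPAK and OSR1 kinases that activate NKCC1, differed by 0.21, the phosphatase Ppp1ca by 0.19 and the kinase Wnk1 by 0.17. Among the parietal cell markers the log2 differences were 0.24 for the potassium channel Kcnj15, 0.075 for Clic6, 0.081 for Kcnq1 and 0.16 for the histamine receptor Hrh2. Unadjusted limma p-values of these markers were 0.264, 0.547, 0.597 and 0.601 in the same order.

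Gene families showed which relatives the mucosa expressed beside the 6 genes. Of 53 listed paralogs, 47 had a named probe, and 17 of these lay above the Y-linked background on every array. None of the 27 tested passed, where 0.00883% of all tested probes did, and 0 had groups that did not overlap, beside 7.19% of all tested probes. None had an unadjusted limma p under 0.05. Of the 27, 17 lay above and 10 below 0 with a median of 0.050, where 76.9% of all tested probes lay above 0. Slc4a4, a sodium-bicarbonate cotransporter, read 20098, 13282 and 10376 in knockout, against 20805, 17824 and 6737 in wild type mucosa. Slc4a3, another anion exchanger, read 1817 to 1988 in knockout and 1629 to 1849 in wild type mucosa, and Slc4a8, a sodium-dependent bicarbonate transporter, was above background on 2 of the 6 arrays. Among sodium-proton exchangers Slc9a3, the apical exchanger of absorptive epithelia, varied most, with 4150, 5236 and 1253 on the knockout arrays, against 8083, 5571 and 1339 on the wild type arrays. Replicate 3 of each genotype was near background for Slc9a3, and its difference was -0.38 (SE 0.78), or -1.16 without wild type replicate 3. Slc9b2 differed by 0.28 and Slc9a8 by 0.14.

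In the SLC12 family the potassium-chloride cotransporter Slc12a7 read 6706, 10247 and 9635 in knockout, against 10430, 7371 and 6656 in wild type mucosa (log2 0.12). Slc12a9 differed by 0.14. Slc12a1, which was close to background at 1130 to 1407, differed by -0.050. Of the aquaporins with the smallest p, Aqp8 was at background and Aqp9 was above it on 2 arrays. Aqp12, an aquaporin of pancreatic acinar cells, read 778 to 873 on the knockout arrays and 899, 857 and 20279 on the wild type arrays, the last on wild type replicate 3. Its difference of -1.59 became -0.083 without that array. Aqp3, a water and glycerol channel named for its high level after its values were seen, read 64662, 66788 and 36594 in knockout, against 62824, 66624 and 26156 in wild type mucosa.

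Car2 sits in a cluster of carbonic anhydrase genes on chromosome 3, where Car13, Car1, Car3 and Car2 follow each other in that order. Car13, a cytosolic isoform, was well expressed, with 26687, 23137 and 20032 on the knockout arrays, against 24521, 20490 and 12705 on the wild type arrays (log2 0.32, SE 0.26; 0.045 without wild type replicate 3). Car1 and Car3, named for their place between them, stayed at or below 940 on every array. Car9, a membrane-bound isoform that is abundant in gastric mucosa, had the smallest p of the family. It read 46273, 74053 and 67386 in knockout, against 43054, 49191 and 49938 in wild type mucosa, a log2 difference of 0.38 (SE 0.20; limma unadjusted p = 0.0969), with knockout replicate 1 inside the wild type range. Car11 differed by -0.16.

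**Figure D4:**
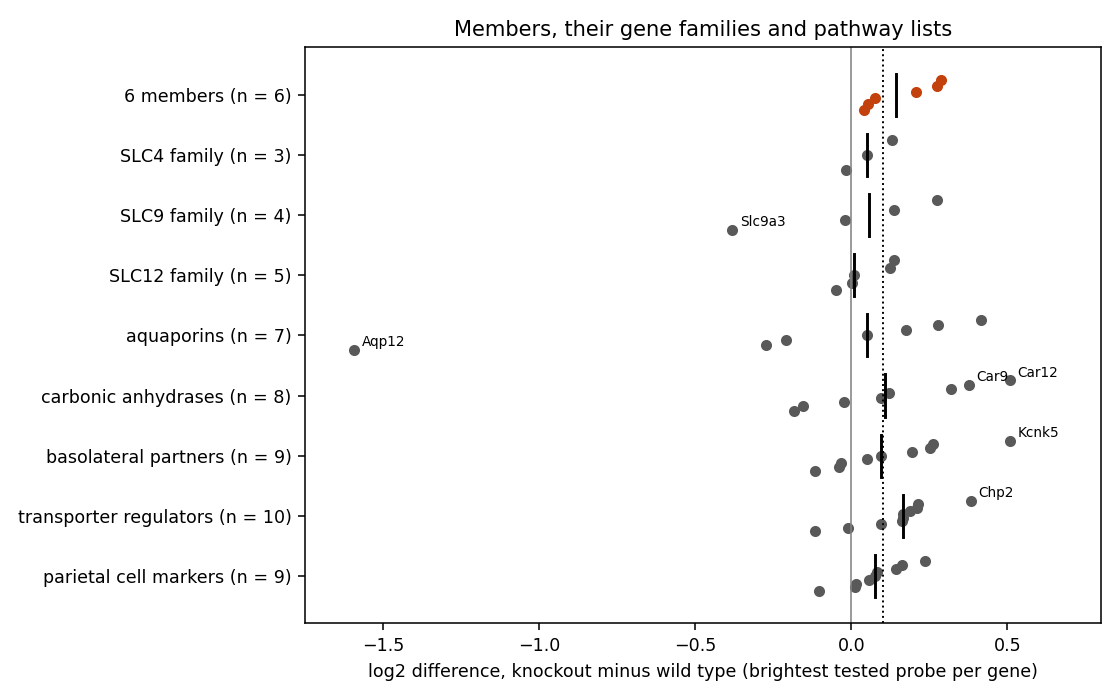
Log2 difference, knockout minus wild type, of the brightest tested probe of each gene, for the 6 genes (orange) and for 8 lists (grey), with a bar at each median and a dotted line at the median of all tested probes. The 6 genes lie between 0.041 and 0.29 with a median of 0.14, and Aqp12 at -1.59 stands far to the left.

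Markers of the other cells of the gland were measured beside these genes. The 5 surface pit cell markers had a median of 0.11, with Gkn2, Muc5ac and Psca the brightest at 0.029, 0.11 and -0.035. Of all tested probes, 7.19% had groups that did not overlap (6.17% higher in knockout mucosa). Gkn1, another gastrokine, named after its values were seen, was the pit marker whose groups did not overlap. It read 292597, 345402 and 294443 on the knockout arrays, against 242085, 243274 and 242879 on the wild type arrays (log2 0.35; limma unadjusted p = 0.0216, adjusted p = 0.994). The 3 mucous neck markers, of which Tff2 was the brightest (-0.054) before Muc6 (0.30) and Aqp5 (0.28), had a median of 0.28. That median was -0.071 without wild type replicate 3, with Muc6 at -0.064 and Aqp5 at -0.12. The 4 tested chief cell markers, led by Pgc (0.056), Cblif (0.034) and Pga5 (0.21), had a median of 0.045, and the fourth, the transcription factor Bhlha15, also made by pancreatic acinar cells, differed by -0.51 (-0.14 without wild type replicate 3). Smooth muscle markers, led by Acta2, Smtn and Actg2, summed to 251010, 66451 and 47879 on the knockout arrays, against 109720, 65899 and 37777 on the wild type arrays. Endothelial markers, with Plvap the brightest, summed to 18856 to 25285 in knockout and 14134 to 35604 in wild type mucosa. None of these markers passed the test, and their part in the values of the 6 genes was not tested.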

How the data were processed

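Total RNA was amplified to biotinylated cRNA and hybridised, 1 array a sample, per the labels' protocols. The deposited values are linear intensity per probe, 1 column for each of 6 arrays, scaled by the authors to a median of 1000, with background left in (no value below 541.9). The labels name no scanner software or filter. Probes were named from the platform annotation, and 34885 of 45281 had 1 gene symbol, 18 several and 10378 none. Gene identifiers of 34807 were found in the RefSeq gene table (GRCm38.p6).

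Intensities were floored at 16 (none was lower) and log2 transformed. The 22640 probes with a mean log2 value above the median probe (mean intensity above 991) were fitted with lmFit and eBayes in limma 3.58.1 (R 4.3.3), two-sided, with Benjamini-Hochberg adjustment over all of them and a threshold of 0.05. Where a gene had several probes, the brightest stands for it in lists. Exact permutation tests ran over the 6 arrays. The fit was tested on simulated data.

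The 6 genes and all lists were chosen with earlier results of these data known. Named were the 6 genes, Lasp1, the members of smallest p in each list (up to 4 in pathway lists and parietal markers, 3 in families), the brightest cell type markers and the 3 genes most like each of the 6. Esrrg, Hbb-bs, Hbb-bt, Hba-a1, Gkn1, Bhlha15, Slc4a1, Car1, Car3, Alas2 and Aqp3 were named after their values were seen. Genes of these lists without a named probe were not analysed here. Alternatives covered normalization, background, filters, offsets, variance models, blocks, covariates and leaving out arrays. Plots used matplotlib 3.10.9 (Python 3.11.15).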

Additional observations from a re-analysis of the deposited data

How the results depend on the processing

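Each of the 6 genes was refitted under 22 alternatives, and with 1 exception none passed at an adjusted p under 0.05. The exception was Slc4a2 with limma's array weights (0.31, limma adjusted p = 0.0431), where 1 member probe and 1816 probes of the array passed (1600 higher, 216 lower in knockout mucosa). The weight estimate stopped before it converged. Probes called over the array numbered 2 as reported, 5 with Y-linked background subtracted, 0 with an offset of 1000, and 151 without the 3 arrays chosen for transcripts of other tissues, knockout replicate 1 and wild type replicates 2 and 3 (38 higher, 113 lower in knockout mucosa). That last setting leaves 1 wild type array, which is assumed to vary like the 2 knockout arrays, so its calls have little weight. The same setting keeps knockout replicate 3, which also carried acinar transcripts (Cela2a 58913). Leaving out 1 array gave 0 to 3, with 3 without wild type replicate 3 and 0 without any other. At an unadjusted limma p under 0.05 there were 392.

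Slc4a2 kept its direction under all 22 alternatives (0.078 to 0.41), but several of them could not move it from 0.28. Those were no filter, the Y-linked filter, the trend and robust variance model, the replicate block and the mean over its single probe. On the low-numbered arrays, a comparison outside the 22, its difference was 0.0034. Slc9a4 and Slc9a2 turned below 0 under 1 each, without the 3 arrays (-0.0085 and -0.036). Differences of Slc12a2, Aqp4 and Car2 turned below 0 with quantile normalization (-0.041, -0.098 and -0.11), cyclic loess (-0.12, -0.10 and -0.14), normexp then quantile (-0.041, -0.10 and -0.11), array weights (-0.091, -0.32 and -0.036), squamous and pancreatic scores as covariates (-0.054, -0.23 and -0.18) and without the 3 arrays (-0.23, -0.59 and -0.31). Scaling to the parietal markers turned Slc12a2 (-0.021) and Car2 (-0.034). Leaving out 1 array gave 0.14 to 0.41 for Slc4a2, 0.00061 to 0.48 for Slc9a4, 0.0019 to 0.32 for Slc9a2, -0.090 to 0.15 for Slc12a2, -0.34 to 0.34 for Aqp4 and -0.19 to 0.23 for Car2, each lowest without wild type replicate 3. Slc12a2 and Aqp4 also turned without knockout replicate 1 (-0.039 and -0.062) and Car2 without knockout replicate 2 (-0.13). The median of all tested probes was 0.10 as reported, 0.0036 with quantile normalization and -0.082 without the 3 arrays. The cause of these reversals was not tested.

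The brightest Lasp1 probe passed with cyclic loess (-1.48), array weights (-1.45) and without the 3 arrays (-1.44). It ranged from -1.51 to -1.19 when 1 array was left out. Without wild type replicate 3 its limma adjusted p was 0.099, while ILMN_2879745 of Lasp1 passed (-2, limma adjusted p = 0.0318). The SLC12 family's median moved to -0.12 with quantile normalization.

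The replicate numbers come from the titles. Deviations of same-numbered samples correlated at 0.044, -0.30 and 0.53, so the numbers were not taken as a pairing. With the replicate number as a block, 0 probes passed, Slc4a2 differed by 0.28 (limma adjusted p = 0.863), and no call among the 6 genes changed. With 3 arrays a group, changes smaller than the intervals in the report could not be told from none, and probes near background give no reliable level. Larger changes can also fail the adjusted test, as the brightest Lasp1 probe did with all arrays (log2 -1.30, limma adjusted p = 0.994).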
